A study of Homo sapiens with 32 samples.

Results

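The transcripts examined here encode 9 secreted hormones and growth factors that cells under stress are known to release: GDF15, STC1, STC2, ADM, ADM2, VEGFA, FGF19, FGF21 and INHBE. They were chosen by symbol, and all 9 were found among the 60660 gene identifiers of the count table. GDF15 was included because its level without the stressor was higher in IGF2BP3 knockout cells than in their parents, so its values in that contrast are given as a description with no test, as are those of the other members there. The study measured poly(A) RNA in 32 libraries of HCT116, a human colorectal carcinoma line. All cells carried the Tet-OsTIR1-PURO genotype, a doxycycline-inducible OsTIR1. Parental cells, 3 clones knocked out for IGF2BP3 (A3, D12 and E4) and 3 clones knocked out for IGF2BP2 (B7, F6 and G6) were each sequenced as DMSO controls and after tunicamycin, an inhibitor of N-linked glycosylation that causes stress in the endoplasmic reticulum. There were 2 parental samples, P1 and P2, and every sample or clone had 2 libraries per treatment, giving 4 parental and 6 knockout libraries per treatment for each genotype. The dose was 5 µg/mL for 4 hours in the parental and IGF2BP3 knockout cells, and the protocol text does not give it for IGF2BP2 knockout cells. Each clone grew from a single sorted cell after transient Cas9 expression, so a clone is 1 cell's descendants and its libraries share everything that arose in that cell. For the control libraries of clone G6 the title says control and the treatment field says tunicamycin. They were used as DMSO by title. In them INHBE had no count and FGF21 a single count, whereas the tunicamycin libraries of the same clone had 10 to 12 counts of each.

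Unfolded protein in the endoplasmic reticulum activates the sensors PERK, ATF6 and IRE1. PERK phosphorylates eIF2α, which slows translation in general and favours that of ATF4, and ATF4 with CHOP drives genes of amino acid supply and of stress adaptation. ATF6 and XBP1 drive chaperones and the degradation machinery of the endoplasmic reticulum. Several secreted factors are known targets of the ATF4 branch, and through them a stressed cell can act on distant tissues. IGF2BP3 and IGF2BP2 are cytoplasmic RNA-binding proteins that bind many mRNAs and can change their stability and translation.

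The guides are shown because 2 clones of each knockout share one and the third clone has another, so that differences between clones can be read against them. The whole guide is in lower case.
IGF2BP3 clones A3 and E4: tggcaccgactgatagagct
IGF2BP3 clone D12: acgcgtagccagtcttcacc
IGF2BP2 clones B7 and F6: gagctgccggaggtcgtcgg
IGF2BP2 clone G6: aggcgtagccggacttcagc

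Promoter sequence, from RefSeq on GRCh38.p14, was at hand for 5 members (GDF15, STC2, ADM, ADM2 and FGF21). The 250 bases before the annotated start were searched on both strands for 6 short motifs. The C/EBP-ATF composite site TGATGNAA, bound by ATF4 with a C/EBP protein, occurs in 3.14% of all 35116 promoter windows of that length, and among the 5 members it occurred in FGF21 alone, on the reverse strand 54 to 47 bases before the start, at chr19:48755470-48755477. The hypoxia element core (ACGTG or GCGTG) occurs in 43.2% of windows and was present 3 times in STC2 and once each in ADM and ADM2. The NF-Y box CCAAT, found in 32% of windows, was present in STC2 and GDF15. Neither endoplasmic reticulum stress element (ERSE, in 0.074% of windows, and ERSE-II, in 0.0513%) nor the CRE core TGACG (21.2%) was in any of the 5. A CCAAT match is also part of any ERSE match. The letters are given for 4 members whose windows held the composite site or the hypoxia core, with those matches in capitals. The STC2 and ADM sequences are stretches of 30 bases, because their windows overlap exons of longer transcripts of the same genes.
FGF21, chr19:48755274-48755523, plus strand: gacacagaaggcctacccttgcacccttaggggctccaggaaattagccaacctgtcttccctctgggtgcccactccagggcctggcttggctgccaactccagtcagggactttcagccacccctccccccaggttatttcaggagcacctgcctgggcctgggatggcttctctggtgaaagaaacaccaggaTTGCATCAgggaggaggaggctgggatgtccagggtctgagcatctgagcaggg
ADM2, chr22:50481293-50481542, plus strand: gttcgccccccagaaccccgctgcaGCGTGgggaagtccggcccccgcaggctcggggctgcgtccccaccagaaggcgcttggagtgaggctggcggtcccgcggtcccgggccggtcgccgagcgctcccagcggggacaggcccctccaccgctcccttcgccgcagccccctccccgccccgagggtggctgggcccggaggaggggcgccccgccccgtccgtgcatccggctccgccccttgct
STC2, chr5:173328620-173328649, minus strand: CACGCACGCaaacGCGTGgccgccgccagg
ADM, chr11:10304961-10304990, plus strand: agcaggagcgcGCGTGgctgaggaaagaaa
A match describes these letters and is not evidence of binding.

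Total counts per library ran from 16651438 to 24913021. Of 8 colorectal epithelial markers, 6 had a median over 1 CPM (counts-per-million), with EPCAM at a median of 270 CPM, whereas VIL1 and LGALS4 had a median of 0. Summed leukocyte markers reached at most 0.174 CPM, endothelial markers 0.884 CPM and hepatocyte markers 0.179 CPM. Of the fibroblast markers, COL1A1 stood at 4.60 to 12.3 CPM and LUM at 0. The targeted transcripts were lowered but measurable. IGF2BP3 stood at 76.5 ± 6.37 CPM in parental DMSO libraries (SD, n = 4) and 27.6 ± 10.8 CPM in IGF2BP3 knockout ones (SD, n = 6), and IGF2BP2 at 176 ± 18.0 CPM in parental DMSO libraries (SD, n = 4) and 86.3 ± 5.20 CPM in IGF2BP2 knockout ones (SD, n = 6). Counts on the edited gene do not report on its protein. Libraries of one clone or sample share their source, so p-values over libraries measure the spread among libraries. Intervals and p-values between genotypes treat the libraries as independent. Fits on counts summed per clone or sample enter only the tally of alternative settings at the end.

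In resting cells 6 of the 9 transcripts were well measured and 3 were nearly absent. Compared per length, as transcripts-per-million (TPM) over the union of exons, the order of mean levels in DMSO was GDF15, STC2, ADM, FGF19, VEGFA and ADM2 in all 3 genotypes. Parental means were 80.2 ± 6.86 TPM for GDF15, 68.9 ± 2.34 for STC2, 50.3 ± 2.77 for ADM, 40.1 ± 4.46 for FGF19, 11.3 ± 0.693 for VEGFA and 3.58 ± 0.386 for ADM2 (SD, n = 4 each). GDF15 (70.6 to 86.0 TPM) and STC2 (65.6 to 70.9 TPM) overlapped in the parental libraries, and each later neighbour pair was separate there. In IGF2BP3 knockout GDF15 stood clear of STC2, at 119 to 138 against 57.1 to 75.4 TPM. In IGF2BP2 knockout GDF15 spanned 58.6 to 146 TPM and overlapped STC2 at 53.6 to 77.7 TPM, as did ADM at 44.1 to 66.0 TPM with STC2 and FGF19 at 22.2 to 44.3 TPM with ADM. The order was the same with the longest transcript as the length and without either replicate.

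**Figure D1:**
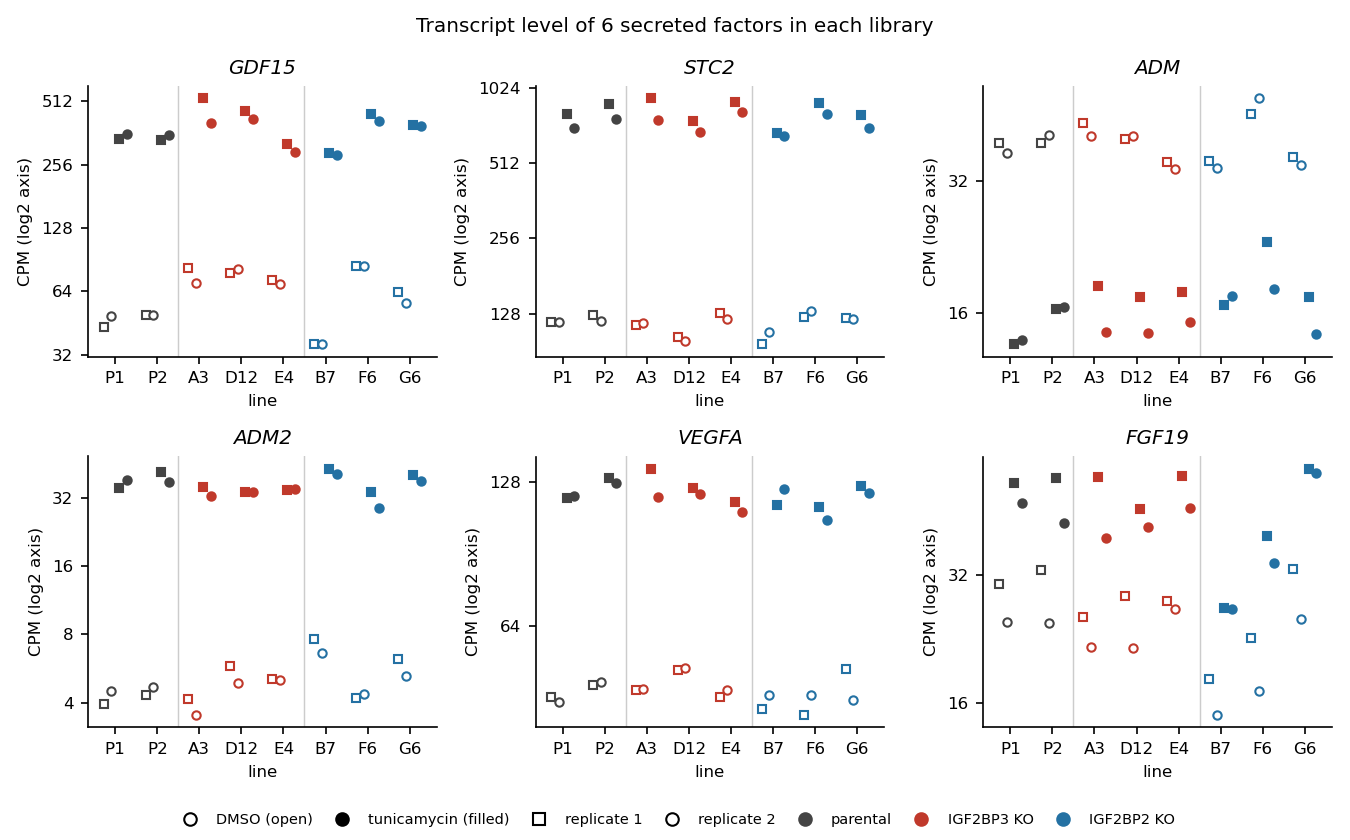
Level in CPM (log2 axis) of the 6 well measured transcripts in each of the 32 libraries, by parental sample (P1, P2) or clone. Open symbols are DMSO and filled ones tunicamycin, squares replicate 1 and circles replicate 2. ADM is the one transcript whose filled symbols lie below the open ones, and in DMSO the GDF15 symbols of every clone but B7 (56.7 to 84.8 CPM) lie above the parental ones (43.5 to 49.4 CPM).

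Tunicamycin raised 5 of the 6 well measured transcripts and lowered ADM in parental cells and in both knockouts. All 6 that passed the filter on low counts were called in each genotype, where 26.8% of all tested genes were called in parental cells, 33.8% in IGF2BP3 knockout and 40.1% in IGF2BP2 knockout. By direction, 12.5% of all tested genes were called higher and 14.3% lower in parental cells, 16.2% and 17.6% with IGF2BP3 knocked out, and 19.2% and 20.9% with IGF2BP2 knocked out. The median log2 change of the 6 was 2.06 in parental cells, 1.87 in IGF2BP3 knockout and 2.02 in IGF2BP2 knockout, against -0.01 for all genes in each. The 3 other members did not pass this filter and are given by their counts further on.

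GDF15, a distant member of the TGF-β family that signals through GFRAL and RET in the hindbrain to reduce food intake, lies at chr19:18374731-18389176 on the plus strand of GRCh38 (ENSG00000130513) and hosts the microRNA gene MIR3189. In parental DMSO libraries it stood at 43.5 and 48.9 CPM in P1 and at 49.3 and 49.4 CPM in P2, and after tunicamycin at 338 and 358 CPM in P1 and at 334 and 355 CPM in P2. The lowest, median and highest of the 6 IGF2BP3 knockout libraries were 69.3, 75.5 and 82.5 CPM in DMSO and 295, 413 and 529 CPM in tunicamycin. Those of IGF2BP2 knockout were 35.9, 60.2 and 84.8 CPM in DMSO and 285, 393 and 443 CPM in tunicamycin. Every tunicamycin library lay above every DMSO library, and the knockout groups were wider than the parental one under tunicamycin. The log2 change was 2.86 in parental cells (SE 0.0649, edgeR adjusted p 4.45e-09), 2.40 in IGF2BP3 knockout (SE 0.0855, adjusted p 4.25e-11) and 2.68 in IGF2BP2 knockout (SE 0.0843, adjusted p 6.79e-12). Between lines the fold ran from 4.34 in E4 to 8.001 in B7, the clones with the lowest and highest response.

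STC2, a stanniocalcin that acts on calcium handling and inhibits the protease PAPPA, lies at chr5:173314713-173329503 on the minus strand (ENSG00000113739). Its parental DMSO libraries stood at 119 and 118 CPM in P1 and 126 and 120 CPM in P2, and after tunicamycin at 804 and 705 CPM and at 880 and 766 CPM. IGF2BP3 knockout ran from 99.6 through a median of 116 to 129 CPM in DMSO, and from 683 through 792 to 929 CPM in tunicamycin. IGF2BP2 knockout ran from 96.5 through 122 to 131 CPM and from 655 through 754 to 888 CPM. The treatments did not overlap, and within each treatment the 3 genotypes did. STC2 rose by a log2 change of 2.71 in parental cells (SE 0.0613, edgeR adjusted p 4.45e-09), 2.83 in IGF2BP3 knockout (adjusted p 6.85e-14) and 2.69 in IGF2BP2 knockout (adjusted p 2.65e-14). Its fold per line, 6.16 to 7.28, varied less than that of GDF15.

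ADM and ADM2 encode vasodilator peptides of the calcitonin family, adrenomedullin and intermedin, which share the receptor CALCRL with its RAMP partners. They moved in opposite directions. ADM (ENSG00000148926, chr11:10304680-10307397, plus strand) stood at 39.2 and 37.2 CPM in P1 and 39.1 and 40.8 CPM in P2 in DMSO, and at 13.6 and 13.9 CPM and 16.3 and 16.5 CPM in tunicamycin. IGF2BP3 knockout had 34.2, 40.3 and 43.5 CPM as lowest, median and highest in DMSO and 14.5, 16.3 and 18.5 CPM in tunicamycin. IGF2BP2 knockout had 34.3, 36.0 and 49.5 CPM in DMSO and 14.4, 17.5 and 23.3 CPM in tunicamycin. All tunicamycin libraries were below all DMSO libraries. ADM fell by 1.37 on the log2 scale in parental cells (SE 0.0647, edgeR adjusted p 3.95e-07), by 1.25 in IGF2BP3 knockout (adjusted p 8.98e-09) and by 1.13 in IGF2BP2 knockout (adjusted p 6.21e-09).

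ADM2 (ENSG00000128165, chr22:50481556-50486440, plus strand) was the lowest of the 6 at rest. Its parental DMSO libraries had 3.94 and 4.51 CPM in P1 and 4.31 and 4.70 CPM in P2, and its tunicamycin libraries 35.5 and 38.7 CPM and 41.7 and 37.7 CPM. IGF2BP3 knockout went from 3.53, 4.96 and 5.81 CPM (lowest, median, highest) to 32.8, 34.6 and 35.8 CPM. IGF2BP2 knockout went from 4.18, 5.74 and 7.64 CPM to 28.8, 39.4 and 43.2 CPM. No tunicamycin library came near the DMSO range. The log2 change was 3.14 in parental cells (SE 0.0816, edgeR adjusted p 8.77e-09), 2.88 in IGF2BP3 knockout (adjusted p 2.33e-12) and 2.73 in IGF2BP2 knockout (adjusted p 1.004e-12). In IGF2BP3 knockout it was close to that of STC2, and without A3 it was 2.76 for ADM2 and 2.82 for STC2.

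VEGFA, the vascular endothelial growth factor that drives vessel growth, lies at chr6:43770184-43786487 on the plus strand (ENSG00000112715). The antisense gene AL136131.3 overlaps its exons, and since the use of strand in counting is not given, reads of the pair cannot be told apart. In DMSO it stood at 45.4 and 44.4 CPM in P1 and 48.0 and 48.8 CPM in P2, and in tunicamycin at 119 and 120 CPM and at 130 and 127 CPM. The knockouts covered 41.6 to 52.2 CPM in DMSO and 107 to 136 CPM in tunicamycin, so the treatments were separate and the genotypes overlapped. VEGFA rose by a log2 change of 1.41 in parental cells (SE 0.0442, edgeR adjusted p 2.19e-08), 1.33 in IGF2BP3 knockout (adjusted p 3.90e-11) and 1.37 in IGF2BP2 knockout (adjusted p 1.79e-11). It was the least variable member, with a coefficient of variation of 5.79% over the 8 line means in DMSO.

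FGF19, an endocrine fibroblast growth factor that the ileum releases to restrain bile acid synthesis in the liver through FGFR4 and KLB, lies at chr11:69698232-69704642 on the minus strand (ENSG00000162344). It stood at 30.4 and 24.7 CPM in P1 and 32.7 and 24.6 CPM in P2 in DMSO, and at 52.4 and 47.1 CPM and 53.7 and 42.1 CPM in tunicamycin. IGF2BP3 knockout went from 21.6, 26.0 and 28.5 CPM (lowest, median, highest) to 39.0, 45.7 and 54.3 CPM. IGF2BP2 knockout went from 15.0, 20.5 and 32.9 CPM to 26.6, 36.7 and 56.5 CPM, and here the treatments overlapped, because 1 DMSO library of G6 (32.9 CPM) lay above both tunicamycin libraries of B7 (26.6 and 26.8 CPM). Within every line tunicamycin libraries were above DMSO libraries. The log2 change was the smallest of the 6 in size, at 0.80 in parental cells (SE 0.105, edgeR adjusted p 0.000352), 0.89 in IGF2BP3 knockout (adjusted p 1.49e-06) and 0.84 in IGF2BP2 knockout (adjusted p 1.19e-06).

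FGF21 and INHBE had few or no counts at rest and were counted in every tunicamycin library. FGF21, the endocrine fibroblast growth factor of the fasting and stress response (ENSG00000105550, chr19:48755559-48758333, plus strand), had no count in any parental DMSO library and 9, 13, 13 and 14 counts in the 4 parental tunicamycin libraries. In IGF2BP3 knockout it went from 2 counts over 6 libraries to 63, with 6 to 14 per library, and in IGF2BP2 knockout from 1 count to 43, with 3 to 11 per library. No DMSO library had more than 1 count. Against a floor of 3 counts over the parental DMSO group, FGF21 in CPM was at least 17.6-fold higher. The ratio was 33.4 in IGF2BP3 knockout (95% exact interval of counting 8.88 to 282) and 49.98 in IGF2BP2 knockout (8.50 to 2019). Such intervals and floors cover counting error only.

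INHBE encodes the βE chain of inhibin and activin, a factor known mainly from liver (ENSG00000139269, chr12:57452323-57459280, plus strand). It had no count in the parental and IGF2BP2 knockout DMSO libraries. In tunicamycin the parental libraries had 23 and 9 counts in P1 and 12 and 15 in P2, and IGF2BP2 knockout libraries had 10 to 18. The floor-based folds were at least 21.1 in parental cells and at least 27.9 in IGF2BP2 knockout. In IGF2BP3 knockout the sum went from 6 to 130 counts, a ratio of 23.01 (95% exact interval of counting 10.3 to 63.8). Of those 6 DMSO counts, 5 came from the first D12 library. Without that library and the first D12 library in tunicamycin, a setting chosen after seeing the data, the ratio was 103 from 1 and 100 counts (18.1 to 4127). Under tunicamycin each first replicate of the IGF2BP3 knockout clones (28, 30 and 35 counts) exceeded each second one (10, 11 and 16 counts), while the clone sums were close, at 44 in A3, 41 in D12 and 45 in E4. With no filter on low counts, edgeR called both genes in all 3 genotypes, with adjusted p 1.25e-09, 2.16e-11 and 3.03e-08 for FGF21 and 6.51e-12, 4.89e-23 and 2.94e-17 for INHBE in parental, IGF2BP3 knockout and IGF2BP2 knockout cells. Mean counts per library in those fits ran from 3.67 to 11.3. The fits hold other genes than the filtered ones, so their p-values cannot be ranked against those of the well measured members. The share of all genes called in them is not given here.

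STC1, the other stanniocalcin (ENSG00000159167, chr8:23841915-23854807, minus strand), was not detectable as changed at this depth. It had at most 2 counts in any library. Parental libraries summed to 4 counts in each treatment, IGF2BP3 knockout to 1 in DMSO and 4 in tunicamycin, the latter all in A3, and IGF2BP2 knockout to 1 in each. These sums are at or near the floor of 3 counts.

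**Figure D2:**
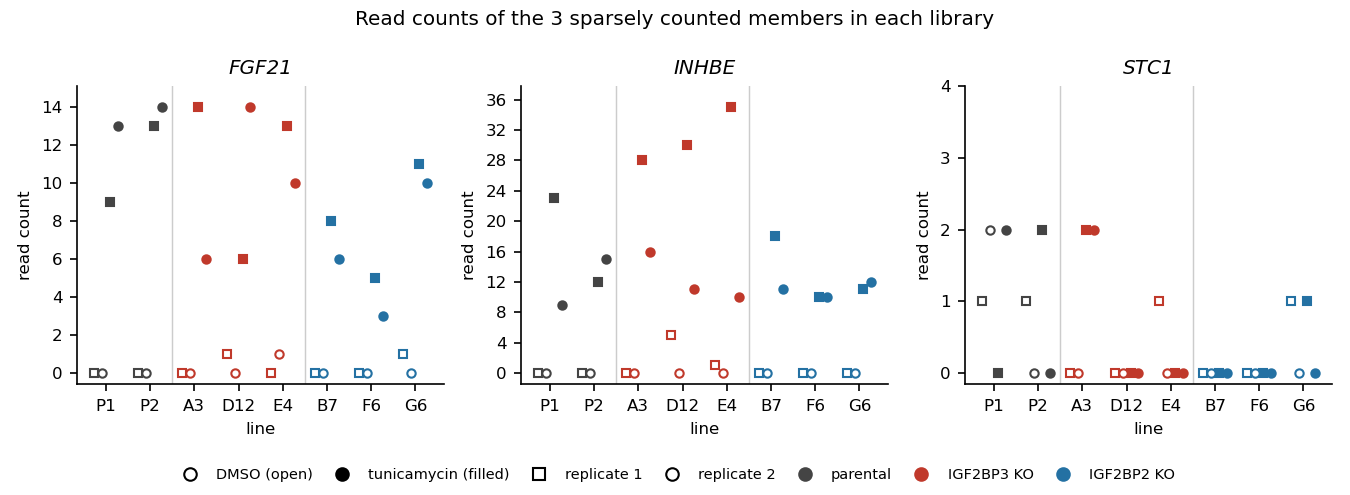
Read counts of FGF21, INHBE and STC1 in each library by parental sample or clone; open symbols are DMSO, filled ones tunicamycin, squares replicate 1 and circles replicate 2. FGF21 and INHBE sit at 0 or 1 in DMSO except for 5 INHBE counts in the first D12 library, and STC1 never exceeds 2.

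Knockout of IGF2BP3 raised none of the members past the test in tunicamycin, and the higher GDF15 at rest is the difference on which the gene was chosen. In DMSO all 6 IGF2BP3 knockout libraries (69.3 to 82.5 CPM) lay above all 4 parental libraries (43.5 to 49.4 CPM), and each clone did so by itself: A3 had 82.5 and 70.5 CPM, D12 78.3 and 82.2 CPM and E4 72.6 and 69.3 CPM. The log2 difference was 0.66 (SE 0.0614), and it ran from 0.62 to 0.71 over the alternative settings. Because the gene was chosen on this difference, neither the separation of the libraries nor this range is support for it. The share of all genes whose libraries are separated in this way was not counted. In that contrast 1.61% of all genes were called, 0.515% higher and 1.1% lower. The other 5 measured members differed by -0.16 (FGF19) to 0.11 (ADM2), where the members' median was 0.02 and that of all genes 0.00.

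In tunicamycin the GDF15 libraries of A3 (529 and 403 CPM) and D12 (461 and 422 CPM) were above the 4 parental ones (334 to 358 CPM), and those of E4 (321 and 295 CPM) were below them. The log2 difference was 0.22 (SE 0.131, 95% interval -0.06 to 0.51, edgeR adjusted p 0.629), and without E4 it was 0.39 (adjusted p 0.0544). edgeR called 0 of the 8 members that passed the filter, where 0.718% of all genes were called (0.116% higher, 0.602% lower), and DESeq2 called 0 too. ADM2 alone had an unadjusted p under 0.05, at a log2 difference of -0.15 (95% interval -0.28 to -0.03, adjusted p 0.338). The remaining differences were 0.03 for STC2, 0.11 for ADM, -0.03 for VEGFA and -0.07 for FGF19. FGF21 gave -0.19 (-0.87 to 0.49) and INHBE 0.59 (-0.29 to 1.47), intervals too wide to show a small difference at these counts.

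The tunicamycin response of GDF15 was 0.45 lower on the log2 scale in IGF2BP3 knockout than in parental cells (-0.45, SE 0.121), a value that contains the resting difference and has no test here. The responses per line were 2.91 in P1 and 2.80 in P2 against 2.60 in A3, 2.46 in D12 and 2.12 in E4, so each knockout clone was below both parental samples. For the other 5 well measured members the difference of responses was 0.12 for STC2, 0.13 for ADM, -0.26 for ADM2, -0.08 for VEGFA and 0.10 for FGF19. Of these 5, edgeR called 0 and DESeq2 0, where 0% of 15313 genes were called by edgeR and 255 had an unadjusted p under 0.05. Among the 5, ADM2 was the one with an unadjusted p under 0.05 (95% interval -0.50 to -0.01).

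**Figure D3:**
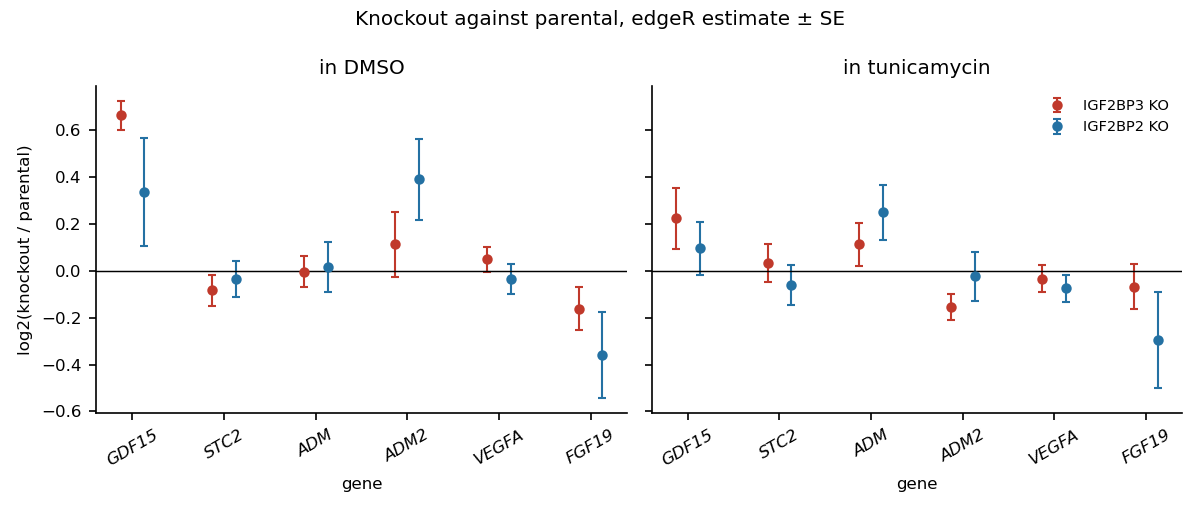
Log2 difference of each knockout from parental cells for the 6 well measured transcripts in DMSO (left) and tunicamycin (right), as edgeR estimates with bars of 1 SE over 6 knockout and 4 parental libraries. GDF15 in IGF2BP3 knockout in DMSO stands at 0.66, a value that served to choose the gene, and at 0.22 in tunicamycin.

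No member passed the test between IGF2BP2 knockout and parental cells. In DMSO edgeR called 0 of the 6 that passed the filter, where 0.0137% of all genes were called, and DESeq2 called 0. Log2 differences were 0.34 for GDF15 (95% interval -0.16 to 0.83, edgeR adjusted p 0.983), 0.39 for ADM2 (0.02 to 0.77, adjusted p 0.983), -0.36 for FGF19 (-0.75 to 0.03, adjusted p 0.983), -0.04 for STC2, 0.02 for ADM and -0.03 for VEGFA. ADM2 was the one member with an unadjusted p under 0.05. The group value of GDF15 rested on its clones: it was 0.60 without B7 and 0.01 without F6. That of FGF19 was -0.20 without B7 and -0.62 without G6.

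In tunicamycin edgeR and DESeq2 again called 0 of the 8 members tested in IGF2BP2 knockout against parental cells, where 0.00694% of all genes were called by edgeR and no member had an unadjusted p under 0.05. GDF15 differed by 0.10 (95% interval -0.15 to 0.34), ADM by 0.25 (-0.00 to 0.50), FGF19 by -0.29 (-0.74 to 0.15), FGF21 by -0.57 (-1.32 to 0.17) and INHBE by -0.11 (-0.77 to 0.56). The difference of responses was -0.41 for ADM2 (-0.64 to -0.17) and 0.24 for ADM (0.04 to 0.44), both with an unadjusted p under 0.05 and an edgeR adjusted p of 1.00, where 0% of 15178 genes were called by edgeR and none of the 6 well measured members by DESeq2. For GDF15 it was -0.18 (-0.43 to 0.06). Both knockouts were set against the same parental libraries, so these values are not independent of those for IGF2BP3.

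The knockouts were also compared with each other under tunicamycin. edgeR called 0 of the 7 members that passed the filter, where 0.391% of all genes were called (0.121% higher, 0.27% lower), no member had an unadjusted p under 0.05 and DESeq2 called 0. IGF2BP3 knockout exceeded IGF2BP2 knockout by 0.13 in GDF15 (95% interval -0.17 to 0.43), by 0.23 in FGF19 (-0.15 to 0.60) and by 0.69 in INHBE (-0.01 to 1.40, edgeR adjusted p 0.346). The higher INHBE values are those of the 3 first-replicate libraries named above, 1.31 to 1.73 CPM, and the part of replicate number in the difference was not tested.

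Clones of one knockout differed from each other in several members. Among IGF2BP2 knockout clones edgeR called 5 of 6 members (all but VEGFA), where 26.4% of all genes were called. GDF15 was lowest in B7 (35.9 and 35.9 CPM in DMSO, 290 and 285 CPM in tunicamycin), highest in F6 (84.8 and 84.1 CPM, 443 and 413 CPM) and between them in G6 (63.8 and 56.7 CPM, 394 and 393 CPM). The 3 clones did not overlap in either treatment, and B7 lay below and F6 and G6 above every parental library in both (edgeR adjusted p 5.58e-05 over the 3 clones). In fits of 2 clones F6 exceeded B7 by 0.86 (SE 0.109, adjusted p 0.0002) on the log2 scale, although both carry the same guide, and G6 exceeded B7 by 0.59 (adjusted p 7.70e-05).

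FGF19 ranked the same clones differently. It was lowest in B7 (18.3 and 15.0 CPM in DMSO, 26.8 and 26.6 CPM in tunicamycin), then F6 (22.7 and 17.1 CPM, 39.4 and 34.0 CPM) and highest in G6 (32.9 and 25.2 CPM, 56.5 and 55.2 CPM). In tunicamycin the clones did not overlap, and in DMSO B7 and F6 did (edgeR adjusted p 2.18e-05 over the 3 clones). ADM2 ran the other way from GDF15: B7 was highest (7.64 and 6.60 CPM in DMSO, 43.2 and 41.0 CPM in tunicamycin) and F6 lowest (4.18 and 4.38 CPM, 34.1 and 28.8 CPM), with an edgeR adjusted p of 0.000815. ADM was highest in F6, at 45.7 and 49.5 CPM in DMSO against 34.3 to 36.4 CPM in B7 and G6, with an adjusted p of 0.00336. For STC2 the adjusted p was 0.00237, with B7 lowest at 96.5 and 108 CPM in DMSO. For VEGFA it was 0.112.

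Among IGF2BP3 knockout clones edgeR called 1 of 6 members, STC2 (adjusted p 0.0209), where 7.63% of all genes were called. STC2 was lower in D12 (103 and 99.6 CPM in DMSO, 753 and 683 CPM in tunicamycin) than in E4 (129 and 121 CPM, 900 and 822 CPM), and A3 lay between in DMSO. The call was lost without D12 (adjusted p 0.742) and without E4 (0.263). GDF15 missed the threshold (edgeR adjusted p 0.0566) but passed it in DESeq2 (adjusted p 0.0104), with no filter on low counts (5.52e-06) and with all 32 libraries in the fit (0.00199), with E4 lower than D12 by 0.36 in a fit of these 2 clones (-0.36, SE 0.0719, edgeR adjusted p 0.00956). A3 and E4 share a guide, and E4 minus A3 was -0.36 as well but with a wider spread (SE 0.112, adjusted p 0.139). The adjusted p was 0.629 for ADM, 0.46 for ADM2, 0.566 for FGF19 and 0.271 for VEGFA.

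Over the 8 lines the coefficient of variation of the DMSO means was 28.2% for GDF15, 21.2% for ADM2, 18.0% for FGF19, 11.03% for ADM, 8.66% for STC2 and 5.79% for VEGFA. Under tunicamycin it was 17.3% for GDF15, 9.67% for ADM2, 20.4% for FGF19, 11.7% for ADM, 9.05% for STC2 and 5.38% for VEGFA. It was thus lower after stress than before it for GDF15, ADM2 and, by little, VEGFA, and not for FGF19, ADM or STC2. The DMSO spread of GDF15 includes the difference at rest on which the gene was chosen. These are descriptions over 2 parental samples and 6 clones.

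Of the pathway genes, the ATF4 and CHOP arm rose with the members. In parental cells 13 of its 14 tested genes rose and 0 fell, with a median log2 change of 3.18 against -0.01 for all genes. The share of all genes called higher was 12.5% in parental cells, 16.2% in IGF2BP3 knockout and 19.2% in IGF2BP2 knockout. The share called lower was 14.3%, 17.6% and 20.9% in the same order. DDIT3, which encodes CHOP, rose by 6.81, CHAC1, which degrades glutathione, by 5.44 and DDIT4, an inhibitor of mTORC1, by 5.42. The ATF6 and XBP1 arm rose in 14 of 14 genes with a median of 2.29, led by HERPUD1 (5.27), a factor in the degradation of endoplasmic reticulum proteins, the co-chaperone DNAJB9 (4.04) and HSPA5 (3.35), the chaperone BiP. The counts were 13 of 14 and 14 of 14 in both knockouts, with medians of 2.94 and 2.28 where IGF2BP3 was knocked out, and of 3.02 and 2.40 where IGF2BP2 was. No gene of either arm was called by edgeR between a knockout and parental cells in tunicamycin. There 0.718% of all genes were called for IGF2BP3 and 0.00694% for IGF2BP2. In the contrast that chose GDF15, 1 of 14 genes of the ATF4 and CHOP arm was called higher at rest in IGF2BP3 knockout. It was ATF3 (0.55), and 0 of 14 of the ATF6 and XBP1 arm were called, where 0.515% of all genes were called higher.

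The list of hypoxia targets holds ADM, VEGFA and STC2. Beside the counts that follow, 12.5% of all genes rose and 14.3% fell in parental cells, 16.2% and 17.6% with IGF2BP3 knocked out, 19.2% and 20.9% with IGF2BP2 knocked out. Of 16 hypoxia targets 5 rose and 5 fell in parental cells, 7 rose and 5 fell with IGF2BP3 knocked out, and 8 rose and 5 fell with IGF2BP2 knocked out. Of the 15 p53 targets, a group that GDF15 is known to belong to, 5 rose and 4 fell in parental cells. GADD45A, a growth arrest gene, rose by 2.14, BBC3, the BH3-only protein PUMA, by 1.73 and TNFRSF10B, the death receptor DR5, by 1.45. At rest the p53 targets were higher in IGF2BP3 knockout by a median of 0.23 against 0.00 for all genes, in the contrast that chose GDF15. There 6 of the 15 were called higher and 0 lower, where 0.515% of all genes were called higher and 1.1% lower, counts given as a description. CDKN1A, the cell cycle inhibitor p21, was 0.48 and BTG2 0.54 higher there. Of the 16 hypoxia targets 1 was called higher there, P4HA1 (0.33), and 0 lower. CDKN1A line means in DMSO were 118 CPM in P1, 126 in P2, 187 in A3, 143 in D12, 182 in E4, 167 in B7, 206 in F6 and 134 in G6. F6 was highest for CDKN1A as for GDF15, whereas B7 was above both parental samples for CDKN1A and below them for GDF15. CDKN1A is 1 of the 15 p53 targets, and a link between its level and that of GDF15 was not tested. In IGF2BP2 knockout the median at rest was 0.21 against 0.00 for all genes. There edgeR called 0 of the 15 and 0.0137% of all genes, so the count does not set the knockouts apart. In tunicamycin no p53 target was called between either knockout and parental cells, where 0.718% of all genes were called for IGF2BP3 and 0.00694% for IGF2BP2.

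In parental DMSO libraries 10 of 21 receptor genes were over 1 CPM. Of the receptor genes named next, the levels were seen before they were chosen. GFRAL, the GDF15 receptor, had no count in 31 of 32 libraries. FGFR4 had a median of 52.1 CPM and its FGF19 co-receptor KLB 0.325 CPM. CALCRL had 0.702 CPM in parental DMSO and 2.09 CPM in parental tunicamycin, RAMP1 had a median of 13.5 CPM, and RAMP2 and RAMP3 had no count. In tunicamycin 2 of 12 tested receptor genes rose and 3 fell in parental cells, 2 and 4 of 13 in IGF2BP3 knockout and 3 and 5 of 12 in IGF2BP2 knockout, where 12.5% of all genes rose and 14.3% fell, 16.2% and 17.6%, and 19.2% and 20.9%, in the same order. FGFR3 fell by 0.58 and FGFR2 by 0.36 on the log2 scale in parental cells, and NRP1, a VEGFA co-receptor, rose by 0.43. In the contrast that chose GDF15, NRP1 was 1.00 lower at rest in IGF2BP3 knockout than in parental cells. It was 1 of 12 tested receptor genes called there, where 1.1% of all genes were called lower. NRP1 line means in DMSO were 14.0 CPM in P1, 12.9 in P2, 7.29 in A3, 3.94 in D12, 8.91 in E4, 1.80 in B7, 3.11 in F6 and 12.2 in G6.

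Of 9 tested genes for processing and binding, 0 rose and 4 fell in each genotype, where 14.3%, 17.6% and 20.9% of all genes fell in parental, IGF2BP3 knockout and IGF2BP2 knockout cells and 12.5%, 16.2% and 19.2% rose. In parental cells the heparan sulfate proteoglycans GPC1 and SDC1 fell by 0.52 and 0.47, and FSTL3, which binds activins, fell by 0.40. FURIN, a convertase that cleaves many precursors, fell by 0.39 in IGF2BP3 knockout and 0.45 in IGF2BP2 knockout. Its parental mean also went down, from 64.7 CPM in DMSO to 50.5 CPM in tunicamycin. Of the members' relatives, 2 of 9 rose and 3 fell in parental cells, 1 of 8 and 4 in IGF2BP3 knockout and 1 of 7 and 4 in IGF2BP2 knockout. FGF9 fell by 0.61 and FGF2 rose by 0.33 in parental cells. Between knockout and parental cells FSTL3 was lower in IGF2BP2 knockout in DMSO (-0.49, edgeR adjusted p 0.0292), where 0.0137% of all genes were called. Only 2 genes were called there, IGF2BP2 being the other, and 1 was called without B7 or without any one parental library. SDC1 was higher in IGF2BP3 than in IGF2BP2 knockout in tunicamycin (0.46, edgeR adjusted p 0.0302), where 0.391% of all genes were called. In the contrast that chose GDF15, SDC1 was 0.29 higher at rest in IGF2BP3 knockout than in parental cells. It was 1 of 9 tested genes called there, where 0.515% of all genes were called higher.

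Likeness to each member was taken as the Pearson correlation of log2 CPM over 16 means, 8 of DMSO and 8 of tunicamycin. The most alike genes were IER3 for GDF15 (0.993), PPP1R15A for STC2 (0.998), GEMIN6 for ADM (0.988), SLC7A5 for ADM2 (0.996), TRIB3 for VEGFA (0.997) and IRF3 for FGF19 (0.964). Among the members themselves STC2 and VEGFA were the closest pair (0.988), and ADM was inversely related to ADM2 (-0.981). These values describe 16 means from 8 lines. The step between treatments enters every correlation, so genes with a strong response score high without any closer relation to the member.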

How the data were processed

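The values the authors deposited are whole-number read counts of genes in 32 libraries of poly(A) RNA, prepared with a directional kit per the labels' protocols. STAR 2.7.5c and the hg38 build are named in the submitters' processing notes, and the counting tool, annotation and use of strand are not given in the sources used here. Symbols were matched by Ensembl identifier to GENCODE 29 on GRCh38, which supplied positions and lengths and may not be the annotation counted on. Groups came from titles, and 0 columns of per-sample values were left unused. No libraries of a group were duplicates, with a chi-square per degree of freedom of 1.76 to 29.4 over 72 pairs.

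Each comparison was fitted on all genes of the libraries compared with edgeR 4.0.16 in R 4.3.3 (TMM, filterByExpr with a minimum count of 10, quasi-likelihood test, Benjamini-Hochberg adjustment, threshold 0.05). Comparisons of treatments and the interactions had the line as a term, those among clones had treatment, and those of genotypes no covariate. SEs are those implied by the F statistic. Ratios of sparse counts have exact 95% intervals, and the floor was 3 counts over a group. CPM was TMM-normalized over all libraries. On simulated counts, edgeR recovered 184 of 200 genes changed by 1 on the log2 scale for tunicamycin in parental cells (14135 genes). It recovered 195 of 200 for IGF2BP3 knockout against parental cells in tunicamycin (14385 genes). False calls were 12 (6.12% of calls) and 6 (2.99%). The simulated libraries were independent of each other, so recovery of smaller changes, or with libraries that share a clone, was not tested. Alternatives were DESeq2 1.42.0, its size factors, no filter, a replicate block, a single fit of all 32 libraries, summing each line's counts, and clones or parental libraries left out. Members, lists and tests were chosen with earlier results of these data known. Up to 3 list genes per comparison were named, those with the largest log2 change among called genes with a mean count of at least 100, besides the receptor genes said to be chosen after their levels were seen.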

Additional observations from a re-analysis of the deposited data

Results flagged for a closer look

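Within each group of 4 or 6 libraries, the highest or lowest value was compared with its nearest neighbour by Dixon's criterion. It marked 7 of 51 groups, where chance marks about 1 in 20 for independent, normally distributed values. A single count in a group otherwise at 0 is always marked, and libraries of a clone are not independent. The number marked is therefore not a measure of excess over chance. GDF15 in the first P1 library in DMSO stood at 43.5 CPM, with the other 3 parental libraries from 48.9 to 49.4 CPM. INHBE stood at 0.234 CPM (5 counts) in the first D12 library in DMSO and at 0.936 CPM (18 counts) in the first B7 library in tunicamycin, where the other 5 IGF2BP2 knockout libraries had 10 to 12 counts. The remaining 4 were single counts in groups otherwise at 0: STC1 in the first E4 library in DMSO (0.0418 CPM), STC1 and FGF21 in the first G6 library in DMSO (0.0455 CPM each) and STC1 in the first G6 library in tunicamycin (0.0538 CPM).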

How the results depend on the processing

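Of 851 tested member values under an alternative setting, 838 kept their side of the threshold, 5 were lost and 8 were gained. Reversal was counted only where the main or the alternative fit called the member, and 0 reversed. Uncalled differences could change sign, as GDF15 did in IGF2BP2 knockout against parental cells in tunicamycin (-0.02 to 0.24). Tests among clones have no direction. Every tunicamycin call of the 6 well measured members held under each alternative run. In IGF2BP2 knockout against parental cells in DMSO, 1 member was called with all 32 libraries in one fit (ADM2, 0.36, edgeR adjusted p 0.0401). Between the knockouts in tunicamycin, leaving out a clone gave 0 to 1 calls, the call being ADM2 without F6 (-0.25, edgeR adjusted p 0.0485). Among IGF2BP3 knockout clones 2 members were called under DESeq2, with no filter, with the replicate block and with all 32 libraries, the added one being GDF15 (adjusted p 0.0104, 5.52e-06, 0.0117 and 0.00199). Leaving out a clone gave 0 to 2 calls there, 2 without A3 and 0 without D12 or E4. Among IGF2BP2 knockout clones it gave 3 calls without F6 (ADM 0.840 and ADM2 0.213 were lost) to 5 without G6, and STC2 was lost without B7 (edgeR adjusted p 0.288). With the replicate block VEGFA was called there (edgeR adjusted p 0.042), which the replicate block did to no other member beyond GDF15. The cause of these changes was not tested. Deviations of same-numbered libraries correlated by 0.0878 to 0.549 in 120 pairs of line and treatment, 119 of them over 0.1, and the labels do not say what a number shares. Counts of called genes over the whole table ran from 2519 (without the first P1 library) to 5989 for tunicamycin in parental cells, 3174 to 6865 in IGF2BP3 knockout (3176 without D12 and 3174 without E4) and 4045 to 7062 in IGF2BP2 knockout. For IGF2BP3 knockout against parental cells they ran from 47 to 513 in DMSO (82 to 134 without any one parental library) and 29 to 491 in tunicamycin (29 to 55 without any one parental library, 68 without D12). For IGF2BP2 knockout they ran from 1 to 156 in DMSO (1 without B7 or any one parental library, 8 without F6, 47 without G6) and 0 to 245 in tunicamycin (14 without F6, 46 without G6). Between the knockouts they ran from 1 to 1186 (12 without D12, 9 without E4, 13 without B7, 218 without F6, 94 without G6). Among clones they ran from 194 to 2080 for IGF2BP3 (486 without D12, 194 without E4) and from 1564 to 5844 for IGF2BP2 (1564 without B7, 1659 without F6). Depth limits FGF21, INHBE and STC1, which have at most 35 counts in a library. Each clone is 1 cell's descendants, so genotype and clone history cannot be told apart with 3 clones.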
